A study of Mus musculus with 8 samples.

Results

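The genes described here encode the classical adhesion receptors of the cell surface, namely cadherins, integrin alpha and beta subunits, and the immunoglobulin and synaptic adhesion families (L1 family, NCAMs, contactins, SynCAMs, nectins, neurexins, neuroligins and MCAM). They were chosen by a rule on their gene symbols that did not use their values, though earlier results of these data were known. Of the 16980 genes in the table of all genes, 68 carried such a symbol. 1 of the 68, Itgb3bp, shares the start of its symbol with the integrins but encodes a centromere protein, so that 67 are adhesion genes. Members without a row in this table, such as Alcam and Cntn1, were not analysed here. Symbols are printed in mouse style.

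The cells were N2A (Neuro2A), a line from a mouse neuroblastoma. HU210 activates the cannabinoid receptor CB1R, which couples to Gi/o proteins and through which these cells are stimulated to grow neurites. After serum starvation in medium with bovine serum albumin, the cells received 2 µM HU210 in DMSO or drug-free DMSO, and mRNA was collected 2, 4, 6 or 8 h later. The 8 libraries represent 1 treatment at 1 time each, and each was made from mRNA pooled over 2 to 3 independent experiments, so a difference between HU210 and DMSO at 1 time point has no replicate check. Genetically the groups are the same line, all were starved, and all received the solvent.

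Neurites lengthen by adhering. Integrins are heterodimers of an alpha and a beta subunit that bind matrix proteins such as laminin and fibronectin and connect them through talin and kindlin to actin. Cadherins hold like cells together through catenins, and the immunoglobulin receptors L1CAM and NCAM1 act in axon growth and bundling, while neurexins and neuroligins pair across synapses.

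The level of a gene is given in FPKM, a fragment count scaled by transcript length and by an upper-quartile measure of library size. This scaling is meant to let levels be set side by side between genes as well as between libraries. Whether libraries of different times were scaled together is not known here, which limits comparisons between times. A gene was called expressed when its mean FPKM over its libraries was at least 1. This held for 29 of the 68 members (42.6%) and for 11500 of all 16980 genes (67.7%). Of the 39 members under this level, 22 had a mean FPKM under 0.1. No read counts were used, and how precise a single FPKM is remains unknown.

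The libraries differ in a way that touches the results below. Over the 11306 genes expressed and listed in all 8 libraries, the deviation of a gene from its own mean rose with the GC content of its exons in the HU210 4 h library (Spearman correlation across genes of 0.45) and fell with it in the DMSO 4 h library (-0.46), while the correlations in the other 6 libraries lay between -0.15 and 0.27. The HU210 4 h and DMSO 4 h libraries were also the least alike of all pairs, with a Pearson correlation of 0.973 over the log2 values. The 4 h differences of the members past 1.3-fold are therefore given as deposited and after removal of the trend on GC content and length. The table's labels fitted the cells, with the sympathetic factors Hand2 at 84.8 FPKM and Phox2a at 41.1 FPKM on average. Of the 12 markers of neuroblastoma and neurons, 11 were listed, their summed level ran from 366 to 449 FPKM over the libraries, and Nefl and Nefm were at 0.01 FPKM or less. Krt8, the 1 listed of 4 epithelium markers, reached 0.153 FPKM, and the summed markers of leukocytes (2 of 3 listed) reached 0.468. Those of endothelium (3 of 4 listed) reached 2.13, of fibroblasts (3 of 5) 2.45 and of glia (4 of 5) 6.98.

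The adhesion repertoire of N2A cells was led by a single integrin beta subunit. Itgb1, the shared beta 1 subunit of the laminin, collagen and fibronectin receptors, had a mean level of 229.8 FPKM, above 98.3% of all genes in the table. Itga6, which pairs with beta 1 or beta 4 to bind laminin, followed with 80.6 FPKM, L1cam with 64.4 FPKM and the homophilic SynCAM Cadm1 with 63.6 FPKM. Together these 4 genes made up 69.6% of the summed FPKM of all 68 members. The levels of L1cam (52.8 to 70.2 FPKM) and Cadm1 (59.5 to 73.8 FPKM) overlapped over the libraries, and those of Itga6 (67.0 to 97.3 FPKM) overlapped with both, while Itgb1 (163 to 339.6 FPKM) lay apart from all other members.

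**Figure D1:**
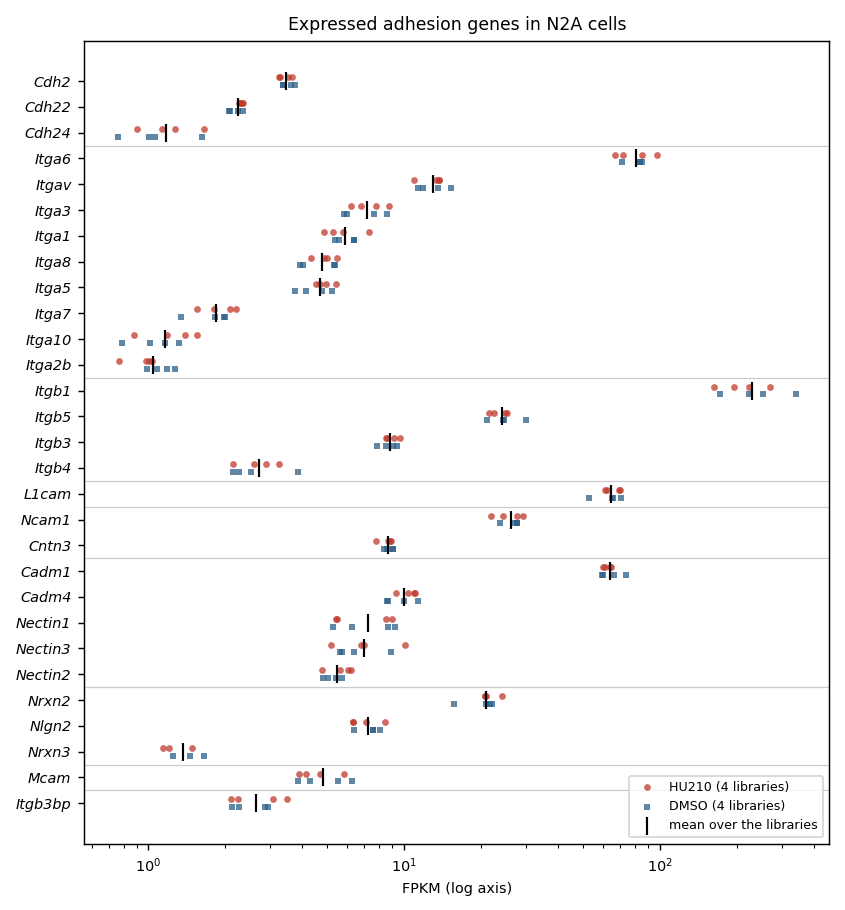
FPKM (log axis) of the 29 expressed members in the HU210 libraries (circles) and the DMSO libraries (squares), with the mean as a black tick and the families separated by lines. Itgb1 stands highest at 163 to 339.6 FPKM, cadherins stay under 4 FPKM, and for most genes the circles and squares cover the same range.

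Among the integrin alpha subunits, 9 of the 17 listed were expressed. Behind Itga6 came Itgav, the alpha subunit of the vitronectin receptors (11.0 to 15.3 FPKM, mean 13.0), the laminin receptor subunit Itga3 (mean 7.18 FPKM), the collagen receptor subunit Itga1 (5.86 FPKM), Itga8 (4.79 FPKM) and the fibronectin receptor subunit Itga5 (4.68 FPKM). The last 3 overlapped in range and cannot be ordered beyond their spread. Itga7, Itga10 and Itga2b lay between 1 and 2 FPKM.

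Of the 8 listed beta subunits, 4 were expressed. After Itgb1 they were Itgb5 (mean 24.3 FPKM) and Itgb3 (8.84 FPKM), which both pair with Itgav, and Itgb4 (2.71 FPKM), the partner of Itga6 in hemidesmosomes. Leukocyte subunits were low, with mean levels of 0.12 FPKM for Itgb2 and 0.01 FPKM for Itgam. The summed level of the 12 alpha subunits that can pair with beta 1 was 106 to 141 FPKM, and Itga6 supplied 63.4% to 68.8% of it in every library. The level of Itgb1 was 1.39 to 2.75 times this sum, lowest in the DMSO 6 h library and highest in the DMSO 4 h library.

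Cadherins were sparse. Of the 16 listed, 3 were expressed, and 10 had a mean level under 0.1 FPKM. The N-cadherin gene Cdh2, the usual cadherin of neural cells, was the highest at 3.25 to 3.74 FPKM, followed by Cdh22 (2.07 to 2.35 FPKM) and Cdh24 (0.761 to 1.66 FPKM). Cdh1 (E-cadherin, epithelium) had a mean of 0.0776 FPKM and Cdh5 (VE-cadherin, endothelium) one of 0.07 FPKM.

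Immunoglobulin and synaptic receptors ranged widely within each family. L1cam was the expressed member of the L1 family, with Nfasc at 0.833 FPKM, Nrcam at 0.577 FPKM and Chl1 at 0.00494 FPKM or less. Ncam1 (21.9 to 29.1 FPKM) and Cntn3 (7.77 to 9.04 FPKM) were expressed of the 7 NCAM and contactin genes, and Ncam2 was at 0.02 FPKM or less. Of the 8 SynCAM and nectin genes 5 were expressed, Cadm1, Cadm4 (mean 10.0 FPKM), Nectin1 (7.22 FPKM), Nectin3 (6.96 FPKM) and Nectin2 (5.45 FPKM). Among synaptic partners, presynaptic Nrxn2 had 20.9 FPKM, Nlgn2, its partner at inhibitory synapses, 7.21 FPKM, and Nrxn3 1.37 FPKM in the 6 libraries in which it was listed. Mcam ran from 3.84 to 6.26 FPKM.

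The members differed in how much their levels varied. The coefficient of variation over all libraries, both treatments and all times together, had a median of 12.3% over the 29 expressed members and ran from 4.93% (Cntn3) to 27.3% (Cdh24). For 18 of the 29 the highest library was less than 1.5 times the lowest, and for 2, Itgb1 (2.09 times) and Cdh24 (2.18 times), it was at least 2 times. The same measures over all genes are not given here, so these values do not set the members apart from other genes.

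Whether the drug moved these genes was asked at each time point with the log2 of (FPKM with HU210 + 1)/(FPKM with DMSO + 1), which makes changes at low FPKM look smaller than they are, and with 1.3-fold as the size to be counted. At 2 h Itgb1 was the 1 member of 29 at least 1.3-fold lower, and 0 were higher, where 3.97% of all 11422 expressed genes were lower and 1.56% higher. At 4 h 2 of 28 members were lower, Itgb1 and Itgav, and 3 were higher, Itga7, L1cam and Nrxn2, against 19.9% and 8.97% of 11420 genes. At 6 h Itgb4 was the 1 lower member and 0 were higher, against 1.79% lower and 6.40% higher of 11413 genes, and at 8 h 0 of 29 were past the size in either direction, against 1.47% lower and 4.39% higher of 11392 genes. With each pair centred on its median ratio the members counted at 2 h, 6 h and 8 h were the same, and at 4 h 7 were higher and 1 lower, against 13.5% and 14.5% of all genes.

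Along the time course the median log2 change of the members was 0.01, 0.02, 0.05 and 0.05, and that of all expressed genes -0.05, -0.08, 0.06 and 0.04. Members therefore stayed near 0 as a group at each time. Their spread was widest at 4 h, with an SD of 0.30 over 28 members (0.40 over all genes), against 0.13, 0.21 and 0.15 at 2 h, 6 h and 8 h.

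**Figure D2:**
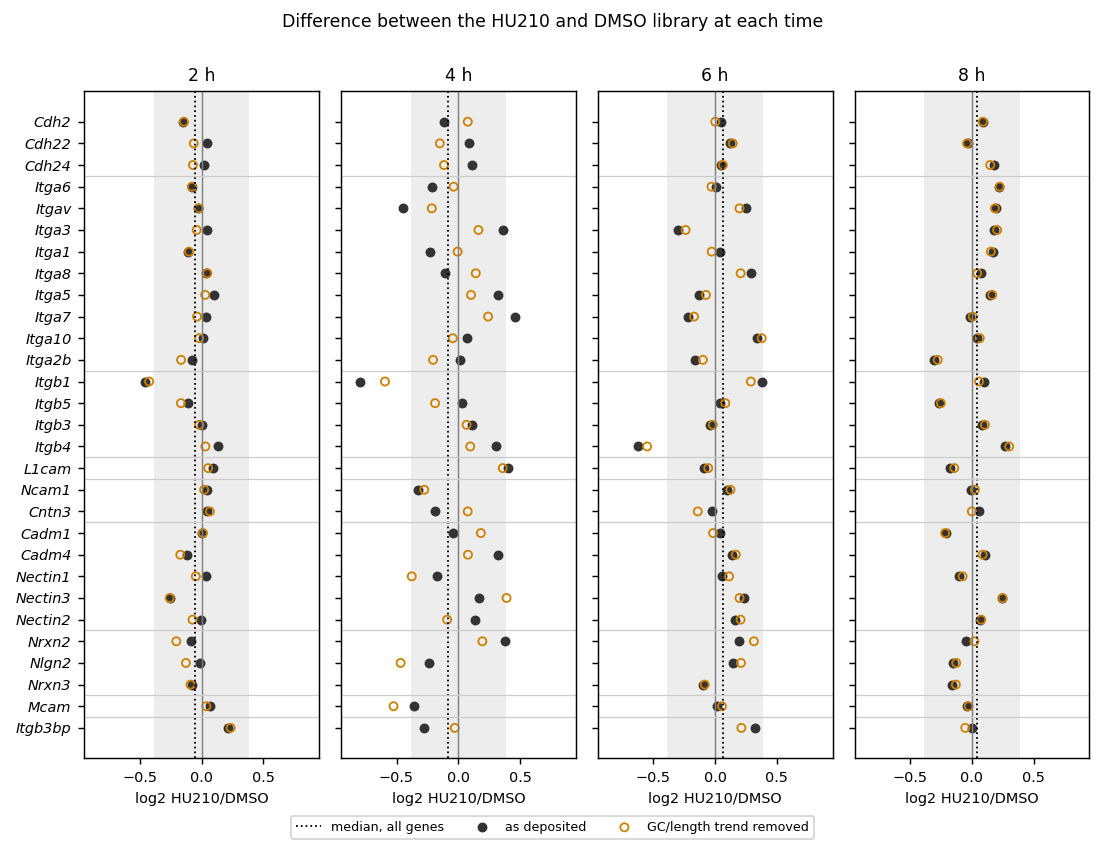
Log2 ratio of the HU210 to the DMSO library (x axis) for each expressed member (rows), 1 panel per time point. Filled points are values as deposited, open points have the GC and length trend removed, the dotted line is the median of all expressed genes and the grey band spans changes under 1.3-fold. Itgb1 lies left of the band at 2 h and 4 h and Itgb4 at 6 h, while at 8 h all members lie inside it.

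Itgb1 (chromosome 8 from 131209554 to 131257100 on mm9, plus strand) showed the widest excursion. With HU210 its level at the 4 times in order was 163, 195, 223 and 269 FPKM. With DMSO it was 224, 339.6, 172 and 252 FPKM. The HU210 libraries thus rose in order of time, the DMSO libraries did not, and the DMSO 4 h library was the highest of all. The log2 changes were -0.46, -0.79, 0.38 and 0.09, of which the 6 h value was just under the counted size. With the GC and length trend removed the 4 values were -0.42, -0.59, 0.29 and 0.06, and with the 4 DMSO libraries averaged as the reference they were -0.56, -0.29, -0.10 and 0.17, so that the 4 h value was under 1.3-fold and the 6 h value had the opposite sign. Itgb1 has exons of 44.5% GC, and some markers of the cell line had the same signs. Of the 9 expressed markers, 3 were at least 1.3-fold lower at 4 h and 3 higher at 6 h, against 19.9% and 6.40% of all genes. Among them were Hand2 (-0.52, or -0.77 with the trend removed, at 4 h and 0.53 at 6 h) and Phox2a (-0.71, or -0.94, and 0.40). The other markers did not follow, with 5 of the 9 above 0 at 4 h, Stmn2 (0.25) and Chga (0.23) highest, and a list median of 0.01. The part of these markers in the Itgb1 values was not tested.

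Itgav (chromosome 2 from 83564554 to 83647073), the partner of Itgb1, Itgb3 and Itgb5, had 13.4, 11.0, 13.7 and 13.6 FPKM with HU210 and 13.6, 15.3, 11.4 and 11.8 FPKM with DMSO. The lowest level was that of the HU210 4 h library and the highest that of the DMSO 4 h library, and elsewhere the treatments lay within 11.4 to 13.7 FPKM. Its 4 h change of -0.45 became -0.21 with the trend removed and -0.22 against the DMSO mean.

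L1cam (chromosome X from 71099117 to 71141444, minus strand), whose product guides axons and is the founder of its family, had 69.0, 70.1, 61.2 and 62.1 FPKM with HU210 and 64.8, 52.8, 65.4 and 70.2 FPKM with DMSO. The HU210 levels were above those of DMSO at 2 h and 4 h and below them at 6 h and 8 h, and the DMSO 4 h library was the lowest. The 4 h change was 0.40 as deposited, 0.36 with the trend removed and 0.15 against the DMSO mean. Nrxn2 had its lowest level in the same library, 15.7 FPKM against 20.8 to 24.1 FPKM in the other 7, and its 4 h change of 0.38 became 0.19 and 0.06. For Itga7, at 1.34 FPKM in the DMSO 4 h library and 1.55 to 2.21 FPKM elsewhere, the 4 h change of 0.46 became 0.24 and 0.21. All 5 members past the size at 4 h had their extreme DMSO value in the DMSO 4 h library.

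**Figure D3:**
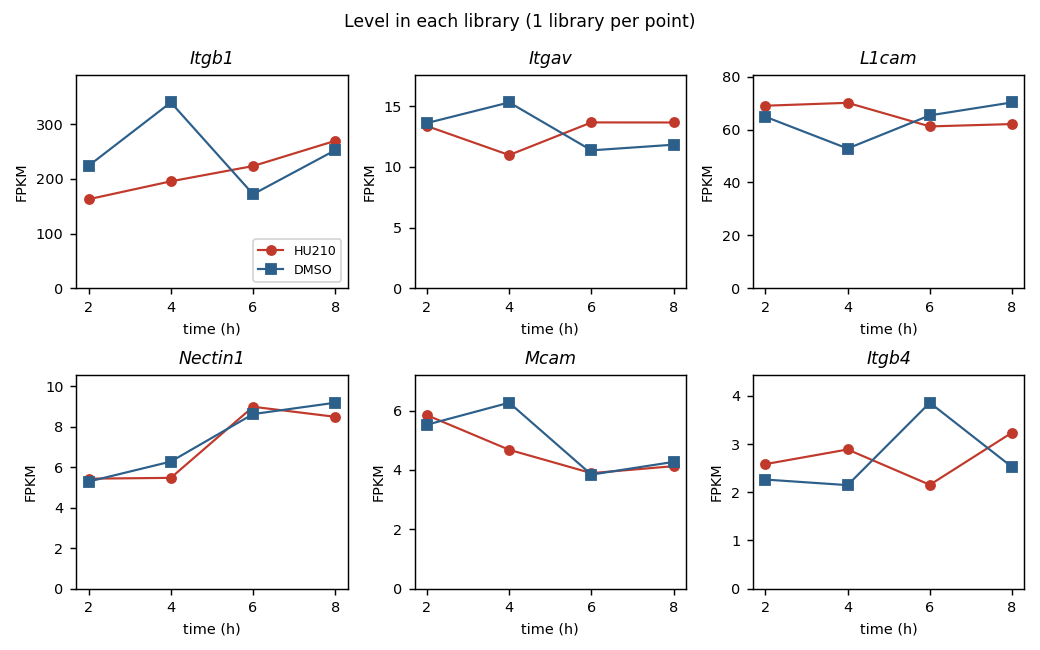
FPKM by time for Itgb1, Itgav, L1cam, Nectin1, Mcam and Itgb4, with HU210 as circles and DMSO as squares, 1 library per point and each y axis from 0. The treatments part most at 4 h for Itgb1, whereas Nectin1 is higher and Mcam lower at 6 h and 8 h under both treatments.

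The members followed the GC content of their exons at 4 h as all genes did. The Spearman correlation of the 4 h change with GC content was 0.51 over the 28 members and 0.50 over 11420 genes; the points share the same pair of libraries. Of the 11 members with a GC content below the median of expressed genes (50%), 10 had a 4 h change below 0, with a median of -0.22, and of the 17 at or above it, 14 were above 0, with a median of 0.11. With the trend removed these medians were -0.01 and -0.05. Nectin3 was the only member of 28 at least 1.3-fold higher after the removal (0.39), against 6.45% of all genes. Itgb1 (-0.59), Mcam (-0.52) and Nlgn2 (-0.47) were lower by that size (3 of 28, against 14.2% of all genes).

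**Figure D4:**
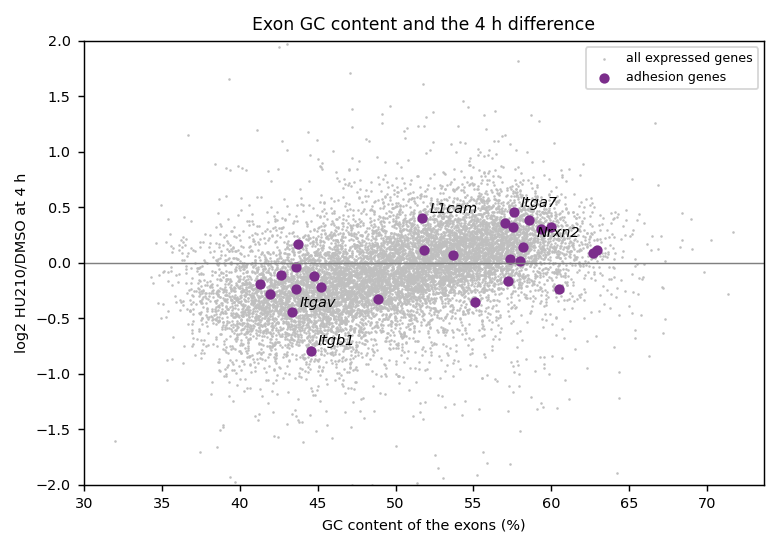
Exon GC content (x axis, percent) against the log2 ratio of the HU210 to the DMSO library at 4 h (y axis) for all expressed genes (grey) and the 28 members listed at 4 h (purple), with the 5 members past 1.3-fold named. 34 genes with a log2 change beyond 2 in size lie outside the plot. Members low in GC lie mostly below 0 and members high in GC mostly above 0, as do the grey points.

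Itgb4 (chromosome 11 from 115836023 to 115869726), the hemidesmosome subunit, had 2.58, 2.89, 2.15 and 3.24 FPKM with HU210 and 2.26, 2.15, 3.86 and 2.52 FPKM with DMSO. A single library, DMSO 6 h, stood above the rest, which ran from 2.15 to 3.24 FPKM. Its 6 h change was -0.62, or -0.55 with the trend removed, and -0.21 against the DMSO mean, while the changes at the other times lay between 0.14 and 0.30.

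Taking the 4 time points as replicates of the treatment, limma called 0 of 28 members and 0 of 11306 genes (0%) at an adjusted p of 0.05. At an unadjusted p under 0.05 there were 0 of 28 members and 148 genes (1.31%). The estimate for Itgb1 was -0.20 ± 0.20 (SE) and 0.0041 without the 4 h pair, with means of 213 ± 45.2 FPKM with HU210 and 247 ± 70.2 FPKM with DMSO (SD, n = 4 libraries of different times), and the standard errors of the members had a median of 0.09. Cdh24 and Itga10 were higher with HU210 at all 4 time points (2 of 28 members, against 4.50% of all genes), by log2 changes of 0.02 to 0.18 and 0.01 to 0.34, and 0 of 28 were lower at all 4 (3.43% of all genes). With the trend removed the 1 member higher at all times was Itga8 (4.02% of all genes), and with each pair centred it was Nectin2 (3.71%). Itgb1, Itga6, L1cam and Cadm1 each had both signs.

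The drug difference before and after 6 h was compared through the 4 pair differences. limma called 0 of 28 members and 0 of 11306 genes (0%) at an adjusted p of 0.05. At an unadjusted p under 0.05 there were 2 members, Itgb1 and Itgav, and 1925 genes (17.0%). The difference at 6 h and 8 h minus that at 2 h and 4 h was 0.86 ± 0.20 (SE, adjusted p = 0.227) for Itgb1 and 0.45 ± 0.18 (adjusted p = 0.284) for Itgav, where the median over all genes was itself 0.12. With each library centred on its median they were 0.71 and 0.31. Itgb1, Itgav, Itga1, Itga6 and Cdh2 were lower with HU210 at 2 h and 4 h and higher at 6 h and 8 h (5 of 28 members, against 25.1% of all genes), and L1cam and Itga7 had the opposite order (2 of 28, against 5.22%). Without the 2 h pair the difference was 1.03 for Itgb1, 0.67 for Itgav and -0.54 for L1cam. In that fit the early side is the 4 h pair alone, which carries the GC trend and is assumed to vary like the 6 h and 8 h pairs. Its calls are therefore not given. Without the 4 h pair the difference was 0.69 for Itgb1 and 0.24 for Itgav.

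The time since HU210 or DMSO was added, shared by both treatments, was compared as late against early libraries. The 4 libraries of 6 h and 8 h all lay above the 4 of 2 h and 4 h for Nectin1, Itgb3 and Itgb5 (3 of 28 members, against 3.24% of all genes), and all below them for Mcam (1 of 28, against 2.20%). With the GC and length trend removed Itgb5 no longer did so, Itga5 and Itga6 did (4 of 28, against 2.73%), and Nectin1, Itgb3 and Mcam still did. By limma, with treatment as a covariate, 0 of 28 members and 0 of 11306 genes (0%) reached an adjusted p of 0.05. At an unadjusted p under 0.05 there were 8 of 28 members, 6 higher and 2 lower late, and 815 genes (7.21%). This fit had no term for the time point, so libraries of the same hour counted as independent, with 2 time points on each side. Its standard errors and p-values rest on that. Time since the addition and any other difference between early and late cultures or libraries cannot be told apart here.

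Nectin1 (chromosome 9 from 43552659 to 43615537), an adhesion receptor that binds nectins on the neighbouring cell and is linked to actin through afadin, had 5.43 and 5.47 FPKM with HU210 at 2 h and 4 h, and 8.99 and 8.49 FPKM at 6 h and 8 h. With DMSO the levels were 5.29, 6.28, 8.63 and 9.19 FPKM. The early and late groups were thus separated by the step from 6.28 to 8.49 FPKM, in the presence of the drug and without it. The means were 5.62 ± 0.447 FPKM early and 8.82 ± 0.321 FPKM late (SD, n = 4 libraries of 2 time points each). The log2 difference was 0.57 ± 0.07 (SE, adjusted p = 0.235 by limma). The value was 0.55 in the DMSO libraries alone, 0.59 in the HU210 libraries alone, 0.63 without the 4 h pair and 0.53 with the GC and length trend removed, and its lowest adjusted p over the alternatives was 0.154, without the 4 h pair.

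Its usual partner in trans, Nectin3, did not share the step. Nectin3 had 5.18, 10.1, 6.77 and 6.98 FPKM with HU210 and 6.38, 8.91, 5.61 and 5.74 FPKM with DMSO. Both 4 h libraries stood above the other 6. Nectin2 had a highest level of 6.18 FPKM, with a late minus early value of 0.17 (adjusted p = 0.677). Afdn, the gene of the nectin linker afadin, lay between 42.0 and 55.7 FPKM.

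Mcam (chromosome 9 from 43942552 to 43950810, plus strand), an immunoglobulin receptor known from melanoma and endothelium, had 5.84, 4.68, 3.89 and 4.12 FPKM with HU210 and 5.52, 6.26, 3.84 and 4.27 FPKM with DMSO. All late libraries were at or under 4.27 FPKM and all early libraries at or above 4.68 FPKM. The means were 5.58 ± 0.672 FPKM early and 4.03 ± 0.202 FPKM late (SD, n = 4 libraries each), a log2 difference of -0.38 ± 0.09 (SE, adjusted p = 0.518). This difference was -0.45 in the DMSO and -0.32 in the HU210 libraries alone. The end of Nectin1 and the start of Mcam lie 327 kb apart on chromosome 9, and their late values lay on opposite sides of the early ones.

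The other members with an unadjusted p under 0.05 were Itga6, Itga3, Itgb5, Nlgn2, Nectin2 and Itga8. Itga6 had 67.0, 72.1, 85.2 and 97.3 FPKM with HU210 and 70.9, 83.9, 85.0 and 83.5 FPKM with DMSO, so that the DMSO 4 h library lay among the late ones. Its late minus early value was 0.26 ± 0.10 (SE, adjusted p = 0.659). Itga3 had the same size (0.26, adjusted p = 0.677), Itgb5 0.22 (adjusted p = 0.676), Nlgn2 0.20 (adjusted p = 0.677), and Itga8 -0.23 (adjusted p = 0.644). None of these passed the test.

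The sequence before the start of 3 members is shown because their levels parted by time or treatment, Itgb1 and L1cam in opposite directions at 4 h and Mcam late against early. They are the 250 bases before the annotated start in RefSeq on GRCm38.p6, a later build than the mm9 of the files, written 5′ to 3′ on the strand of the gene. Of the 68 members 46 had an entry, Nectin1 was not among them, and of the 2 entries of L1cam the first is shown. Itgb1 is chr8:128685404-128685653 on the plus strand, L1cam chrX:73880791-73881040 on the minus strand and Mcam chr9:44134408-44134657 on the plus strand. Capitals mark a GC box (GGGCGG, or CCGCCC where it lies on the other strand) and a cAMP response element (TGACGTCA, which reads the same on both strands).
Itgb1: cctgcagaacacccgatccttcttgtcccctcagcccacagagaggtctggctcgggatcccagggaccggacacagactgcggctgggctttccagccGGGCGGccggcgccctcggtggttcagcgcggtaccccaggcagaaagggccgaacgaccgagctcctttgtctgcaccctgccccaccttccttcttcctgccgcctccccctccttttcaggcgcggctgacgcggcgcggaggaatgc
L1cam: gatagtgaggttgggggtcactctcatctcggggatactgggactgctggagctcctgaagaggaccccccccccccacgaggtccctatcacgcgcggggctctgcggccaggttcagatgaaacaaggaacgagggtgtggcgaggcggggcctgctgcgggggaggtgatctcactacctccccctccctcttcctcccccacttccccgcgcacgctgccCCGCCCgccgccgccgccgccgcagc
Mcam: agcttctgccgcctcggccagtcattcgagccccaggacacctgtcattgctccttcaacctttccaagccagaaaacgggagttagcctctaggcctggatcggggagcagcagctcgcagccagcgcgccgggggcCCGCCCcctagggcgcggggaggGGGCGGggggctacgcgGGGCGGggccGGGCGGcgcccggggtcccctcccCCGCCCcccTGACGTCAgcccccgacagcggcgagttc
Itgb1 and L1cam each held 1 GC box, and Mcam held 5 GC boxes and 1 cAMP response element. Of 32851 promoter windows of the same length, 32.7% held a GC box and 1.55% a cAMP response element on either strand. The Egr1 motif GCGTGGGCG, which can overlap a GC box (0.536% of windows), and the E-box CACGTG (6.02%) were found in none of the 3. The GC content of the windows was 68.0%, 69.6% and 73.6%. These letters are a description of the windows, and binding was not measured.

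The intracellular partners and ligands of the receptors were counted in the same way. Of 58 symbols of the adhesion pathway, 2 of which name the afadin gene, 54 were listed and 40 expressed. At 2 h 1 of the 40 (2.5%) was at least 1.3-fold higher (Col4a1) and 1 lower (Gap43), against 1.56% and 3.97% of all genes. At 4 h 4 (10%) were higher (Ctnnb1, Dlg4, Lama5 and Psen2) and 4 lower (Ctnnal1, Fermt2, Lims1 and Parva), where 8.97% and 19.9% of all genes were. At 6 h 0 were higher and 2 (5%) lower (Lama4 and Lama5), against 6.40% and 1.79% of all genes. At 8 h 1 (2.5%) was higher (Fyn) and 1 lower (Cask), against 4.39% and 1.47% of all genes. Their median log2 change was 0.03, 0.10, -0.01 and 0.04. By limma 0 of 40 were called for treatment or for late against early, with 0 (0%) and 6 (15%) at an unadjusted p under 0.05, against 1.31% and 7.21% of all genes.

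Among the 8 expressed catenins and cadherin linkers, Ctnnb1, the beta-catenin gene, was the highest at 183 to 276 FPKM, far above the cadherins themselves. It was higher with HU210 at 4 h, by a log2 change of 0.44 that was 0.45 with the trend removed. Ctnnal1, a relative of alpha-catenin, was lower at 4 h, by -0.57 or -0.38 with the trend removed. Of the 13 expressed integrin linkers and kinases 3 (23.1%, against 19.9% of all genes) were lower at 4 h and 0 higher. These were the scaffolds of the integrin-linked kinase complex Lims1 (-0.49) and Parva (-0.46) and the kindlin Fermt2 (-0.44). With the trend removed they were -0.23, -0.36 and -0.34, under 1.3-fold. Talin (Tln1, 0.34) and the adaptor Bcar1 (0.34) lay on the other side of 0, and the list median was 0.02.

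Among the matrix ligands, Fn1 (fibronectin) was listed at 121 to 141 FPKM and differed by log2 changes of -0.11 to -0.03 between the treatments. Lama4 and Lama5, laminin alpha chains, were lower with HU210 at 6 h (-0.50 and -0.53), and Col4a1, a basement membrane collagen, was higher at 2 h (0.48, from 38.2 to 53.7 FPKM). With the trend removed these 3 values were -0.53, -0.42 and 0.40. The 1 pathway gene past 1.5-fold was Cask, a scaffold that binds neurexins. It had 13.3, 14.6, 12.4 and 14.3 FPKM with HU210 and 16.0, 15.5, 11.7 and 22.3 FPKM with DMSO, and the DMSO 8 h library stood above the other 7, giving a log2 change of -0.61 at 8 h. The shedding proteases Adam10, Adam17 and Bace1, which cut L1CAM, cadherins and other receptors, stayed under 1.3-fold at every time, and Psen2, a gamma-secretase subunit of the same list, was higher at 4 h (0.39, or 0.24 with the trend removed).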

How the data were processed

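The data are 8 mRNA libraries of N2A cells, 1 for each treatment and time. Per the labels, the authors mapped reads with TopHat2 2.0.8, Bowtie2 2.1.0 and SAMtools 0.1.7 to mm9 and used Cufflinks, whose version is not given in the sources used here. The authors deposited FPKM from Cuffdiff, upper-quartile normalized and corrected for fragment bias and multiply mapped reads, with 1 added, and that 1 was taken off here. Their fold changes, p-values, adjusted p-values and table of called genes were not used.

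Log2 values had a pseudocount of 1. Expressed genes had a mean FPKM of at least 1, and the 11306 listed in all 8 libraries were fitted with limma 3.58.1 (R 4.3.3), with p-values adjusted over all of them by Benjamini-Hochberg. The fits were treatment with time as a factor, late against early with treatment as a covariate, and late against early over the 4 pair differences. In the treatment fit and the fit of pair differences the spread is that between time points. In the late against early fit it mixes the spread between time points with that between libraries of the same hour. The GC and length trend was a loess fit (span 0.3, degree 1) on exons of GENCODE vM1 (mm9), in which all 68 members were found. For the changes it was fitted to the log2 ratio of each time point, and the median was added back. For the limma fits and the early and late levels it was fitted to each library's deviation from the gene mean. Fits were tested on simulated data.

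The members and lists were chosen with earlier results of these data known. Genes were named when among the 4 highest of a family, past 1.5-fold at any time or called, and other genes past 1.3-fold, those nearest the threshold of a fit, and the 3 promoters were chosen after their values were seen. Further tools were Python 3.11.15 with pandas 2.3.3 and scipy 1.17.1. Some items are not reported here.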

Additional observations from a re-analysis of the deposited data

Results flagged for a closer look

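For 7 expressed members the difference between HU210 and DMSO had one sign at 2 h and 4 h and the opposite sign at 6 h and 8 h. The difference at the late times minus that at the early times (log2, each library against its own time) was 0.86 for Itgb1, 0.45 for Itgav, 0.28 for Itga1, 0.26 for Itga6 and 0.20 for Cdh2, and it was -0.38 for L1cam and -0.36 for Itga7. By limma none of the 7 reached an adjusted p of 0.05 (lowest 0.227, Itgb1). Against the mean of the DMSO libraries this order was lost by Itgb1 (-0.10 at 6 h) and Itgav (0.04 at 2 h). Itga1 (-0.03 at 6 h) and Itga7 (0.01 at 8 h) lost it as well. With the GC and length trend removed it was lost by Itga1, Itga6, Cdh2 and Itga7 and kept by Itgb1, Itgav and L1cam. Over all genes, 25.1% had the first order of signs and 5.22% the second.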

How the results depend on the processing

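No analysis paired by replicate number was possible because each group has 1 library, and HU210 and DMSO were paired by time instead. Without that pairing 0 genes were called for treatment. With a 1.5-fold size in place of 1.3-fold, the counts were 0 lower at 2 h, and 0 higher with 1 lower at 4 h. With a pseudocount of 0.1, 6 were higher at 4 h, 2 higher at 6 h and 1 lower at 8 h (11.0%, 9.01% and 2.19% of all genes). With each pair centred on its median ratio, 7 were higher and 1 lower at 4 h (13.5% and 14.5% of all genes). Against the mean of the DMSO libraries, 1 (Nectin3) was higher and 0 lower at 4 h and 0 lower at 6 h (2.07%, 5.64% and 1.38% of all genes). With the GC and length trend removed 1 was higher at 4 h (6.45% of all genes). Without the filter on FPKM, 1 was higher at 6 h and 2 at 8 h (5.14% and 3.72% of all genes). Leaving out a time pair, the comparison of the drug difference late against early called 0 to 3 members and 2 to 1738 genes, the highest in both without the 2 h pair. Alternatives chosen after seeing the data left 10 members with all late libraries higher and 4 lower without the 4 h pair (14.1% and 15.5% of all genes), where fewer libraries must separate. Of members with 1 direction at all times, 1 was lower without the 4 h pair (9.01% of all genes). With the trend removed 1 was higher and 1 lower (4.02% and 3.72%), and with centring 1 was higher (3.71%). Where no cause is named, the cause was not tested. The other 89 counts stayed within 1.5 times, and no member past 1.3-fold changed sign. Itgb1 changed sign at 6 h against the DMSO mean (-0.10) and in its treatment estimate, which ran from -0.39 to 0.0041 when a time pair was left out, the latter without the 4 h pair. The number of reads behind each gene is not known here, which limits members under 1 FPKM.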

Other observations

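Some members under a mean of 1 FPKM, chosen here after their values were seen, had a wider ratio of highest to lowest library than the expressed ones. Cdh18, a type II cadherin of the nervous system, had 0.585, 0.977, 1.39 and 1.55 FPKM with HU210 and 0.254, 0.711, 1.01 and 0.184 FPKM with DMSO, in order of time. The HU210 value was above the DMSO value at all 4 times, and the widest gap was at 8 h, with a log2 change of 1.11. Nlgn3, a postsynaptic neuroligin, had 1.19 FPKM with HU210 and 0.483 FPKM with DMSO at 8 h, against 0.394 to 0.768 FPKM in the other 6 libraries. Itga4, an alpha subunit that binds fibronectin and VCAM1, was at 0.0291 to 0.0420 FPKM in both 2 h libraries and the DMSO 4 h library and at 0.251 to 0.293 FPKM in the other 5. These levels are low, and the reads behind them are unknown.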
